A study of Homo sapiens with 9 samples.

Results

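Polycomb and trithorax proteins form chromatin complexes that hold developmental genes silent or keep them active. A set of 43 genes encoding subunits of these complexes was followed in HEK293T cells, of 58735 genes in the deposited count table. The members were chosen by gene symbol from known subunits of Polycomb repressive complexes 1 and 2 (PRC1 and PRC2), of the KMT2 methyltransferase complexes and of the demethylases of histone H3 lysine 27. The rule names genes and uses no measured value, but the set was proposed with earlier results of these data known. All 43 had enough counts to be tested.

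HEK293T cells descend from human embryonic kidney and make the large T antigen of SV40. Cells received 10 nM of 1 of 3 siRNAs for 36 h: a negative control siRNA, an siRNA against PHF12 or an siRNA against SUDS3. Each group held 3 libraries, and every group shared the same line, transfection reagent and dose. PHF12 and SUDS3 encode subunits of SIN3 histone deacetylase complexes, which remove acetyl groups from histones. The labels name 1 siRNA per target, so an effect of the targeted gene and an effect of that particular siRNA cannot be told apart. The labels do not say that replicates came from separate cultures, so the p-values measure the spread between these libraries, which may be technical.

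PRC2 places methyl groups on lysine 27 of histone H3 (H3K27) through EZH1 or EZH2. PRC1 attaches ubiquitin to histone H2A through RING1 or RNF2, each paired with 1 of 6 PCGF proteins that define the kind of PRC1. Canonical PRC1 binds methylated H3K27 through a CBX protein, while variant PRC1 carries RYBP or YAF2 in its place. KMT2 enzymes of the trithorax group methylate lysine 4 of the same histone, a mark of active promoters and enhancers, and KDM6A and KDM6B remove the methyl groups on H3K27.

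Library totals ran from 37962926 to 50946148 counts, and 96.1% of counts above 0 were multiples of 4, so a total may stand for fewer sequenced fragments. Levels are given as CPM, a library's counts scaled to a common total with TMM factors, and differences as log2 fold changes with their standard error (SE). A gene passed when its adjusted p was below 0.05 in edgeR's quasi-likelihood test over 18088 genes. PHF12 stood at 50.3, 50.5 and 48.8 CPM in the control libraries and at 27.9, 24.5 and 28.3 CPM with PHF12 siRNA, which left 53.9% (edgeR adjusted p = 1.88e-14). SUDS3 stood at 107.5, 114 and 111.8 CPM in controls and at 21.1, 22.3 and 22.9 CPM with SUDS3 siRNA, which left 19.9% (edgeR adjusted p = 1.82e-28). SUDS3 also fell with PHF12 siRNA, to 72.9% of control (edgeR adjusted p = 6.83e-10). PHF12 rose with SUDS3 siRNA, by 0.30 on the log2 scale (edgeR adjusted p = 7.19e-05). The marker levels that follow were scaled by library total alone, without TMM factors. Of the markers for this line, VIM ranged from 543.5 to 769.3 CPM, NEFM from 235 to 376.7 CPM, NEFL from 84.1 to 113.7 CPM, KRT18 from 68.7 to 84.2 CPM, KRT8 from 11.6 to 35.9 CPM, LHX1 from 2.66 to 4.15 CPM and PAX2 from 0.944 to 2.32 CPM. Among 13 markers of other cell types, PTPRC, CD3E and MYH1 were at 0 in every library. The sum of the 13 was 19.4 to 20.3 CPM in controls, 25.7 to 27.4 CPM with PHF12 siRNA and 27.1 to 31.1 CPM with SUDS3 siRNA, and COL1A1 alone ranged from 11.2 to 22.6 CPM. The part of this shift in the results was not tested. In these bulk libraries, fewer cells with a transcript and less of it per cell cannot be told apart.

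With PHF12 siRNA, 12 of the 43 members rose, 8 fell and 23 did not pass. These shares, 27.9% and 18.6%, stood beside 14.8% higher and 17.1% lower over all genes tested. The median log2 fold change of the members was 0.03, against 0.00 over all genes, and the members ranged from -0.81 to 0.35. With SUDS3 siRNA, 13 members rose, 9 fell and 21 did not pass, or 30.2% and 20.9%, beside 19.6% higher and 19.2% lower over all genes. Their median was 0.02, against -0.02 over all genes, and they ranged from -0.88 to 0.46. Well expressed genes pass more often. Among the 9669 genes whose mean level was at or above that of the lowest member, 23.4% rose and 26.2% fell with PHF12 siRNA, and 32.4% rose and 25.9% fell with SUDS3 siRNA. Against these genes, the members' counts lie near the background or below it, so the number of members that changed is not a result about the set. The counts by role and by list further on are of few genes and were not tested, and they describe those genes only. Both comparisons use the same control libraries, so their values stand side by side and are not independent.

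Upper-quartile scaling moved the split of calls. Under it 19 members rose and 8 fell with PHF12 siRNA, so that 70.4% of the members' calls were higher in place of 60%, while over all genes the share went from 46.4% to 56.9%. With SUDS3 siRNA, 12 members rose and 12 fell under that scaling, and the share of higher calls was 50% in place of 59.1%. Over all genes that share went from 50.5% to 44.2%. The members' medians became 0.07 with PHF12 siRNA and -0.01 with SUDS3 siRNA, so the sign of the latter depends on the scaling. The medians over all genes moved too, to 0.03 and -0.05.

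**Figure D1:**
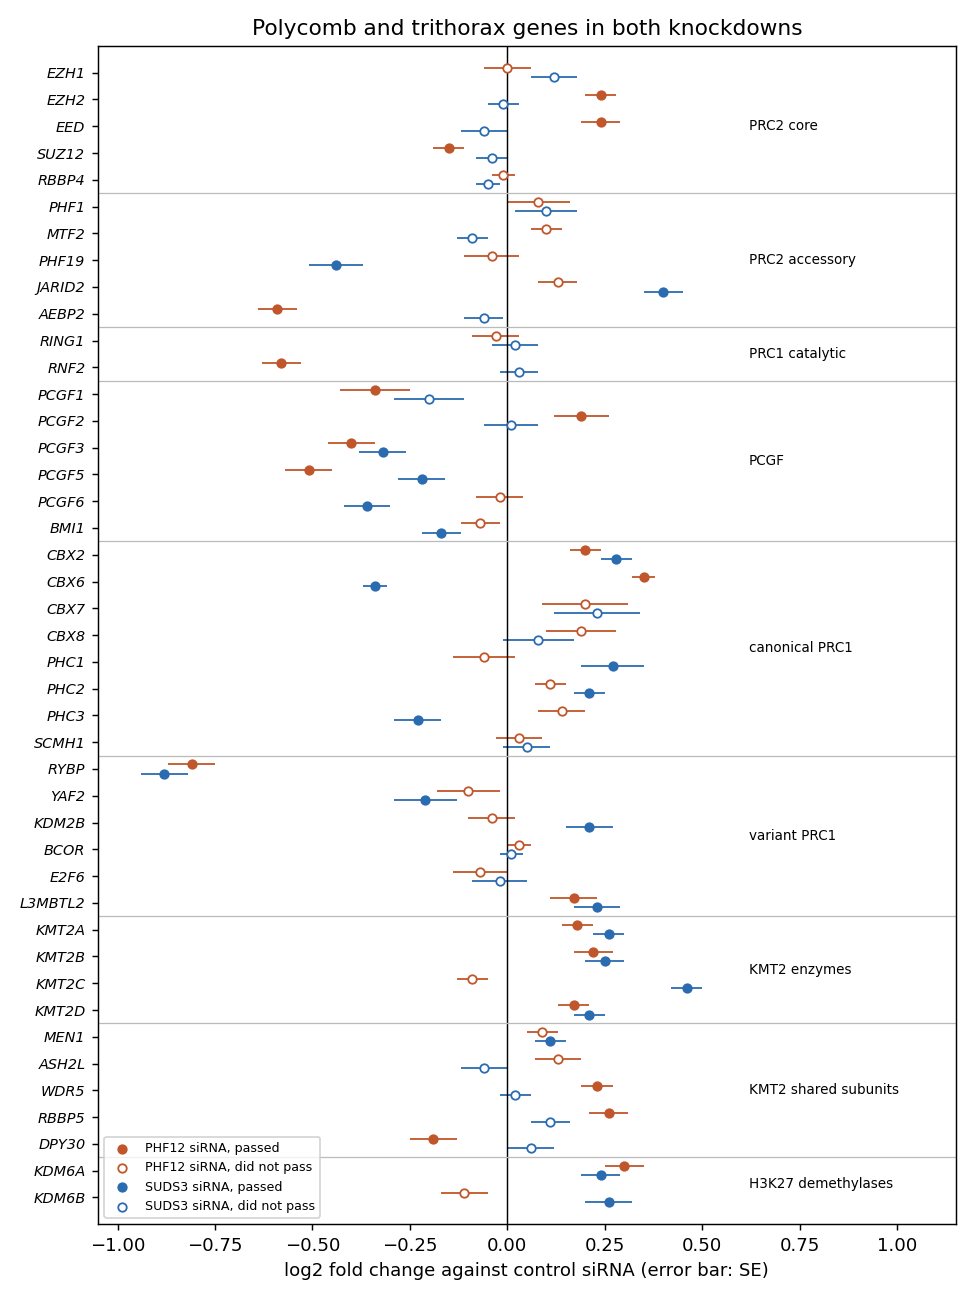
Log2 fold change of each of the 43 genes against control siRNA (horizontal axis; error bar, SE of the edgeR fit), grouped by role, for PHF12 siRNA in orange and SUDS3 siRNA in blue. Filled points passed the adjusted p threshold of 0.05 and open points did not. RYBP lies farthest to the left in both knockdowns, and CBX6 passed on opposite sides.

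The 4 largest falls with PHF12 siRNA were in RYBP, AEBP2, RNF2 and PCGF5, and RYBP had the largest fall with SUDS3 siRNA too. RYBP, AEBP2 and PCGF5 carry in their 3′ untranslated regions (3′ UTRs) the 6-letter word AATCAC, which an earlier scan of these same fold changes had picked out. RYBP also carries TACATT, picked out in the same way for SUDS3 siRNA. The sites below show these words in capitals, with 8 bases on either side, as the RNA's strand reads in GRCh38. All the AATCAC sites of RYBP, AEBP2 and PCGF5 are given, with the single sites of SUZ12 and DPY30, the first of 4 in PCGF3 and the first TACATT site of RYBP. The AATCAC sites of CBX2, RBBP5 and KDM6A, which rose with PHF12 siRNA, are given for comparison. Each lies in the longest annotated 3′ UTR of its gene in GENCODE 29. For KDM6A that 3′ UTR is spliced from several exons, and the AATCAC site lies before the last of them. Whether the transcripts expressed here hold that site was not tested.
RYBP, chr3:72377586-72377607, minus strand: aactgacaAATCACaagtggtt
RYBP, chr3:72374398-72374419, minus strand: ggcaaaagAATCACcaaaattt
AEBP2, chr12:19519069-19519090, plus strand: gaaaataaAATCACtttcttgc
AEBP2, chr12:19520210-19520231, plus strand: acaaagcaAATCACatttagct
AEBP2, chr12:19521885-19521906, plus strand: ttctctttAATCACaacttaaa
PCGF5, chr10:91280306-91280327, plus strand: attttaaaAATCACaagtgaga
PCGF5, chr10:91280642-91280663, plus strand: actactagAATCACagatttct
PCGF5, chr10:91281085-91281106, plus strand: attgaagtAATCACatcagtta
PCGF3, chr4:768004-768025, plus strand: taaaattaAATCACagttcaga
SUZ12, chr17:31999793-31999814, plus strand: aattagatAATCACacggaaaa
DPY30, chr2:32024002-32024023, minus strand: tttgatttAATCACcataaacc
CBX2, chr17:79785407-79785428, plus strand: cgtgactgAATCACagctttgg
CBX2, chr17:79787913-79787934, plus strand: ccaaagccAATCACtggcttga
RBBP5, chr1:205087290-205087311, minus strand: gtcaggagAATCACttgaacgt
KDM6A, chrX:45069736-45069757, plus strand: ctgctctcAATCACctctcctc
RYBP, TACATT, chr3:72378065-72378086, minus strand: tttccatgTACATTacaactgg

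The core of PRC2 changed little, and it changed with PHF12 siRNA. EZH2, the main methyltransferase of dividing cells (chromosome 7, 148807383 to 148884321), stood at 160.9, 164.9 and 163.4 CPM in controls, 189.7, 197.1 and 188.9 CPM with PHF12 siRNA, and 160.2, 160.2 and 165 CPM with SUDS3 siRNA. All 3 PHF12 siRNA libraries lay above all others. EZH2 rose by 0.24 (SE 0.04, edgeR adjusted p = 1.36e-06) with PHF12 siRNA, and its change with SUDS3 siRNA was -0.01 (SE 0.04, edgeR adjusted p = 0.853). EED, which binds methylated H3K27 and stimulates the enzyme, stood at 48.4, 48.9 and 53.2 CPM in controls, 58, 60.5 and 58.6 CPM with PHF12 siRNA, and 49.7, 47.3 and 47.3 CPM with SUDS3 siRNA. Again the PHF12 siRNA libraries were the highest, and EED rose by 0.24 (SE 0.05, edgeR adjusted p = 0.00081). With SUDS3 siRNA its difference was -0.06 (SE 0.06, edgeR adjusted p = 0.438).

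SUZ12, the scaffold of PRC2, stood at 114.5, 114.9 and 120.9 CPM in controls, 100.1, 107 and 109.1 CPM with PHF12 siRNA, and 114.3, 111.4 and 114.6 CPM with SUDS3 siRNA. The PHF12 siRNA libraries were the lowest of the 9, and SUZ12 fell by 0.15 on the log2 scale (SE 0.04, edgeR adjusted p = 0.00599), opposite in sign to EZH2 and EED. Without control library 3 the SUZ12 difference was -0.12 (edgeR adjusted p = 0.0535), and without PHF12 siRNA library 1 it was -0.11 (edgeR adjusted p = 0.0615). SUZ12 has a counted pseudogene, SUZ12P1, and the sources used here do not say how reads that match both were counted. With SUDS3 siRNA, SUZ12 differed by -0.04 (SE 0.04, edgeR adjusted p = 0.488). EZH1, the other methyltransferase, had log2 fold changes of 0.00 and 0.12 with PHF12 and SUDS3 siRNA, and RBBP4, a histone-binding subunit, -0.01 and -0.05. Neither gene passed. Of the 5 core genes, 2 rose and 1 fell with PHF12 siRNA, and with SUDS3 siRNA their edgeR adjusted p ran from 0.11 to 0.853. With PHF12 siRNA 14.8% of all genes rose and 17.1% fell, and 23.4% and 26.2% of the well expressed genes. Under upper-quartile scaling RBBP4 passed with SUDS3 siRNA (-0.08, edgeR adjusted p = 0.0325).

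The 5 accessory subunits of PRC2 steer it to chromatin. With PHF12 siRNA 0 rose and 1 fell, and with SUDS3 siRNA 1 rose and 1 fell. Over all genes 14.8% rose and 17.1% fell with PHF12 siRNA, and 19.6% and 19.2% with SUDS3 siRNA. Among the well expressed genes these shares were 23.4% and 26.2%, and 32.4% and 25.9%. Counts of 5 genes describe those genes only. AEBP2, a zinc-finger partner of the PRC2 form that also holds JARID2 (chromosome 12, 19404045 to 19720801), stood at 64.9, 65.1 and 66 CPM in controls, 43.6, 42.7 and 43.8 CPM with PHF12 siRNA, and 64.4, 59.6 and 63.6 CPM with SUDS3 siRNA. It fell by 0.59 on the log2 scale with PHF12 siRNA (SE 0.05, edgeR adjusted p = 1.39e-11), and all 3 of those libraries lay far under the other 6. With SUDS3 siRNA its difference was -0.06 (SE 0.05, edgeR adjusted p = 0.368).

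JARID2, which lacks demethylase activity and helps recruit PRC2, stood at 53.9, 50.8 and 51.5 CPM in controls, 57.1, 55.2 and 58.7 CPM with PHF12 siRNA, and 69.8, 66 and 70.2 CPM with SUDS3 siRNA. The 3 groups did not overlap. JARID2 rose by 0.40 (SE 0.05, edgeR adjusted p = 9.82e-08) with SUDS3 siRNA, while 0.13 with PHF12 siRNA did not pass (SE 0.05, edgeR adjusted p = 0.054), though it did so in 11 of 18 alternative settings. PHF19, a Polycomb-like protein with a Tudor domain (chromosome 9, 120855652 to 120894896), stood at 40.2, 38.9 and 36.7 CPM in controls, 38, 34.7 and 39.9 CPM with PHF12 siRNA, and 28.6, 27.4 and 29.2 CPM with SUDS3 siRNA. PHF19 fell by 0.44 on the log2 scale with SUDS3 siRNA (SE 0.07, edgeR adjusted p = 1.54e-06), and its change with PHF12 siRNA was -0.04 (SE 0.07, edgeR adjusted p = 0.698). The other Polycomb-like proteins passed in neither knockdown against control. PHF1 had log2 fold changes of 0.08 and 0.10, and MTF2 of 0.10 (edgeR adjusted p = 0.0554, passing in 11 of 18 alternatives) and -0.09 (edgeR adjusted p = 0.0969). PHF1 overlaps CUTA on the opposite strand, and the sources used here do not give the strand setting of the counts.

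The knockdowns were also set against each other directly. Of the 10 PRC2 genes 3 were higher and 4 lower, where 35.6% of the well expressed genes were higher and 28% lower, so the count is near that background. Against PHF12 siRNA, SUDS3 siRNA gave lower EZH2 (-0.25, edgeR adjusted p = 2.88e-07), lower EED (-0.30, edgeR adjusted p = 2.41e-05), lower PHF19 (-0.40, edgeR adjusted p = 4.99e-06) and lower MTF2 (-0.19, edgeR adjusted p = 0.000223). It gave higher AEBP2 (0.53, edgeR adjusted p = 1.1e-10) and higher JARID2 (0.27, edgeR adjusted p = 4.3e-05). SUZ12 was higher by 0.11 (edgeR adjusted p = 0.0396), a difference that 9 of 18 alternatives did not call. Without PHF12 siRNA library 1, SUDS3 siRNA library 1 or SUDS3 siRNA library 3, the SUZ12 difference was 0.07, 0.09 and 0.09, with edgeR adjusted p of 0.234, 0.136 and 0.12. EZH1 (0.11), RBBP4 (-0.04) and PHF1 (0.02) did not pass.

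**Figure D2:**
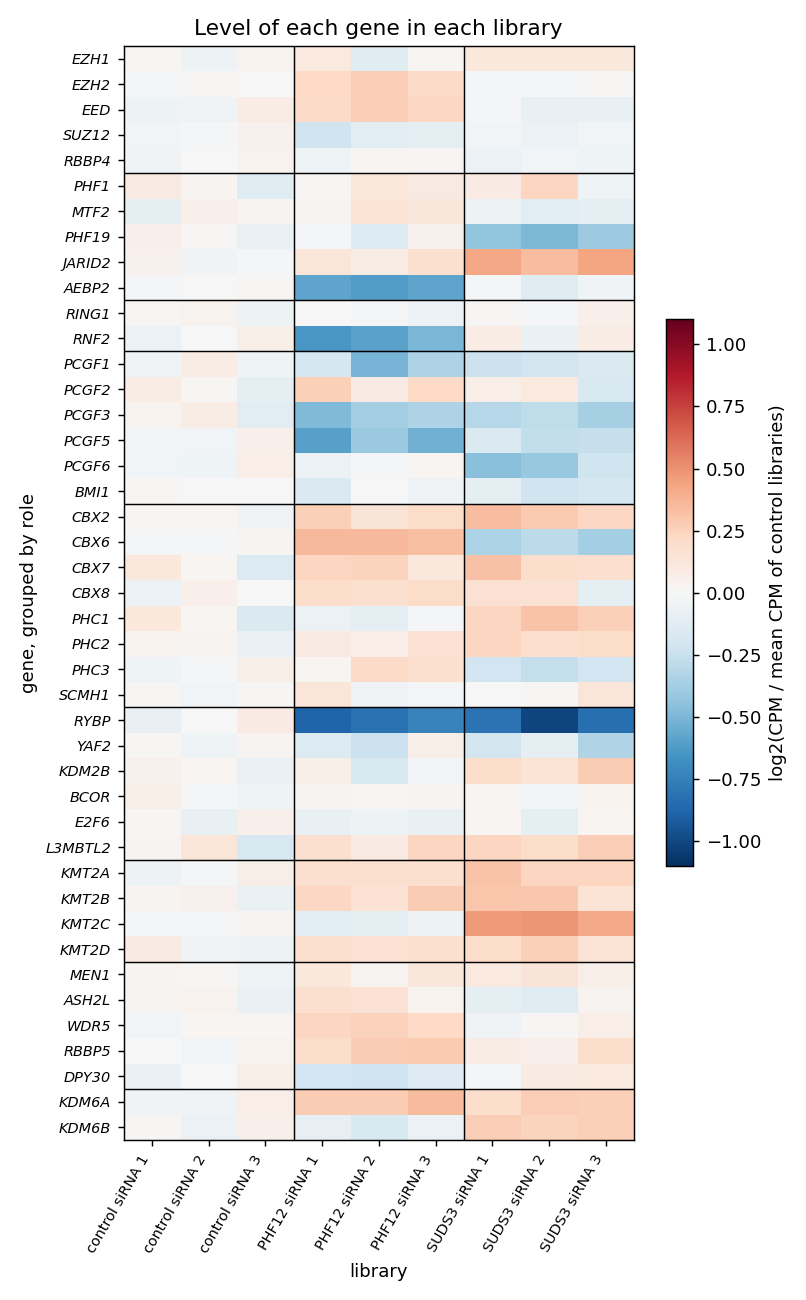
Colour shows log2 of each library's CPM over the mean CPM of the 3 control libraries, for the 43 genes (vertical axis, grouped by role) in the 9 libraries (horizontal axis). AEBP2 and RNF2 are blue in the 3 PHF12 siRNA libraries, RYBP is blue in all 6 knockdown libraries, and KMT2C and JARID2 are red in the 3 SUDS3 siRNA libraries.

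In the catalytic pair of PRC1, RNF2 fell with PHF12 siRNA and RING1 did not pass. RNF2, the E3 ubiquitin ligase also called RING1B (chromosome 1, 185045364 to 185102608), stood at 70.2, 73 and 76.7 CPM in controls, 47.1, 48.6 and 51.6 CPM with PHF12 siRNA, and 77.4, 69.7 and 77.5 CPM with SUDS3 siRNA. It fell by 0.58 on the log2 scale with PHF12 siRNA (SE 0.05, edgeR adjusted p = 6.11e-11), with no overlap between the groups. With SUDS3 siRNA the difference was 0.03 (SE 0.05, edgeR adjusted p = 0.709). The direct difference between the knockdowns was 0.61 (SE 0.05, edgeR adjusted p = 7.41e-12). RING1, its paralog, had log2 fold changes of -0.03 and 0.02.

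The PCGF genes set which PRC1 is built. Of the 6, 1 rose and 3 fell with PHF12 siRNA, and 4 fell with SUDS3 siRNA, leaving 2 that did not pass in each. Over all genes 17.1% and 19.2% fell, and among the well expressed genes 26.2% and 25.9%. With so few PCGF genes these counts describe the genes named here, and the 1 rise, in PCGF2, lost its call in 6 of 18 alternatives. PCGF3 and PCGF5, found in the same kind of variant PRC1, passed lower in each comparison with control. PCGF3 (chromosome 4, 705748 to 770640) stood at 63.8, 66 and 57 CPM in controls, 44.6, 48 and 49.3 CPM with PHF12 siRNA, and 50.2, 51.4 and 48.2 CPM with SUDS3 siRNA. The control libraries were the highest, and PCGF3 fell by 0.40 on the log2 scale (SE 0.06, edgeR adjusted p = 9.39e-07) and by 0.32 (SE 0.06, edgeR adjusted p = 2.94e-05). PCGF5 (chromosome 10, 91163012 to 91284331) stood at 52.2, 52.1 and 55.4 CPM in controls, 35.1, 40.2 and 36.8 CPM with PHF12 siRNA, and 47.8, 44.1 and 44.7 CPM with SUDS3 siRNA. Here the 3 groups kept apart, with PHF12 siRNA lowest. PCGF5 fell by 0.51 on the log2 scale (SE 0.06, edgeR adjusted p = 1.48e-08) and by 0.22 (SE 0.06, edgeR adjusted p = 0.00272), and the difference between the knockdowns passed for PCGF5 (0.29, edgeR adjusted p = 0.000167) and not for PCGF3 (0.08, edgeR adjusted p = 0.296). PCGF3 overlaps counted antisense genes, of which AC139887.2 holds the most counts.

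PCGF1, the partner of KDM2B and BCOR, stood at 22.3, 24.3 and 22.1 CPM in controls, 20, 16.1 and 18.1 CPM with PHF12 siRNA, and 19.4, 19.9 and 20.5 CPM with SUDS3 siRNA. It fell by 0.34 on the log2 scale with PHF12 siRNA (SE 0.09, edgeR adjusted p = 0.00187), and with SUDS3 siRNA -0.20 did not pass (SE 0.09, edgeR adjusted p = 0.0638). PCGF1 lost its call with PHF12 siRNA when limma was run on the deposited TPM (adjusted p = 0.0773 with a pseudocount of 1). The deposited TPM values did not follow exon length. A pseudocount acts on their scale, and this limit holds for every limma result on TPM given here. PCGF6, a subunit of the PRC1 that holds L3MBTL2 and E2F6, stood at 54.3, 53.9 and 58.6 CPM in controls, 53.1, 55 and 56.6 CPM with PHF12 siRNA, and 40.5, 41.6 and 47.7 CPM with SUDS3 siRNA. The SUDS3 siRNA libraries were the lowest, and PCGF6 fell by 0.36 on the log2 scale (SE 0.06, edgeR adjusted p = 7.52e-06). Its change with PHF12 siRNA was -0.02 (SE 0.06, edgeR adjusted p = 0.87).

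BMI1, also called PCGF4 and a subunit of canonical PRC1, stood at 93.1, 91.9 and 91.8 CPM in controls, 82.8, 92.2 and 89.6 CPM with PHF12 siRNA, and 85.9, 79.1 and 80.9 CPM with SUDS3 siRNA. It fell by 0.17 on the log2 scale with SUDS3 siRNA (SE 0.05, edgeR adjusted p = 0.00366), and without SUDS3 siRNA library 2 the difference was -0.13 (edgeR adjusted p = 0.0514). With PHF12 siRNA 1 of 3 libraries lay inside the control range, and -0.07 did not pass (edgeR adjusted p = 0.329). PCGF2, the close paralog of BMI1, rose by 0.19 with PHF12 siRNA (edgeR adjusted p = 0.0279) and differed by 0.01 with SUDS3 siRNA. That PCGF2 call was lost without control library 2, control library 3, PHF12 siRNA library 1 or PHF12 siRNA library 3, with values of 0.19, 0.15, 0.15 and 0.17 and edgeR adjusted p of 0.0708, 0.138, 0.134 and 0.0965. PCGF2 overlaps CISD3 on the opposite strand.

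Canonical PRC1 subunits changed in both directions. With PHF12 siRNA 2 of 8 rose and 6 did not pass, and with SUDS3 siRNA 3 rose, 2 fell and 3 did not pass. Over all genes 14.8% rose and 17.1% fell with PHF12 siRNA, and 19.6% and 19.2% with SUDS3 siRNA. Among the well expressed genes these shares were 23.4% and 26.2%, and 32.4% and 25.9%. Counts of 8 genes describe those genes only. CBX6, a chromodomain reader of methylated H3K27 (chromosome 22, 38861450 to 38872314), was the 1 member that passed in opposite directions. It stood at 213.6, 211.5 and 220.2 CPM in controls, 275.3, 275.5 and 271.3 CPM with PHF12 siRNA, and 168.6, 176.3 and 166 CPM with SUDS3 siRNA. The controls lay between the knockdowns with no overlap. CBX6 rose by 0.35 (SE 0.03, edgeR adjusted p = 1.06e-10) with PHF12 siRNA and fell by 0.34 on the log2 scale (SE 0.03, edgeR adjusted p = 3.66e-10) with SUDS3 siRNA. The direct difference, -0.69 (SE 0.03, edgeR adjusted p = 7.81e-19), was the largest of any member between the knockdowns.

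CBX2, another reader of methylated H3K27, stood at 95, 95.2 and 91.5 CPM in controls, 112.4, 103.9 and 107.9 CPM with PHF12 siRNA, and 118.6, 114.4 and 109.8 CPM with SUDS3 siRNA. All 6 knockdown libraries lay above the controls. CBX2 rose by 0.20 (SE 0.04, edgeR adjusted p = 0.000325) and by 0.28 (SE 0.04, edgeR adjusted p = 1.87e-06), and the knockdowns differed by 0.08, which did not pass. CBX7 (0.20 and 0.23) and CBX8 (0.19 and 0.08) passed in neither comparison.

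The polyhomeotic proteins, whose SAM domains join PRC1 complexes into larger bodies, did not move alike with SUDS3 siRNA. PHC1 rose by 0.27 (edgeR adjusted p = 0.00879), PHC2 rose by 0.21 (edgeR adjusted p = 0.00025) and PHC3 fell by 0.23 on the log2 scale (edgeR adjusted p = 0.00288). The PHC1 call was lost without control library 3 (0.20, edgeR adjusted p = 0.0801), and PHC1 overlaps M6PR, a gene of much higher count, on the opposite strand. The PHC3 call was lost with limma on the deposited TPM at either pseudocount (limma adjusted p up to 0.0532). With PHF12 siRNA, PHC1 (-0.06), PHC2 (0.11) and PHC3 (0.14) did not pass. SCMH1, which binds the PHC proteins, had log2 fold changes of 0.03 and 0.05. Directly compared, SUDS3 siRNA gave higher PHC1 (0.33, edgeR adjusted p = 0.000984) and lower PHC3 (-0.37, edgeR adjusted p = 4.85e-06) than PHF12 siRNA.

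Variant PRC1 held the largest change of the set. RYBP, which binds RNF2 and histone H2A carrying ubiquitin (chromosome 3, 72371825 to 72446621), stood at 81.6, 86.1 and 92 CPM in controls, 46.9, 49 and 52 CPM with PHF12 siRNA, and 49.3, 42.9 and 48.7 CPM with SUDS3 siRNA. The means were 86.5 ± 5.19, 49.3 ± 2.58 and 47.0 ± 3.54 CPM (SD, n = 3 each). Every knockdown library lay far under every control, and the knockdowns overlapped each other. RYBP fell by 0.81 on the log2 scale with PHF12 siRNA, to 57.0% of control (SE 0.06, edgeR adjusted p = 5.31e-14). It fell by 0.88 with SUDS3 siRNA, to 54.2% (SE 0.06, edgeR adjusted p = 8.42e-15). The knockdowns differed by -0.07 (SE 0.06, edgeR adjusted p = 0.357).

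YAF2, the paralog of RYBP, differed by -0.10 with PHF12 siRNA, which did not pass, and fell by 0.21 on the log2 scale with SUDS3 siRNA (edgeR adjusted p = 0.0446). That call was lost in 9 of 18 alternatives, with adjusted p from 0.0216 to 0.221. Among them, leaving out control library 1, 2 or 3 or SUDS3 siRNA library 1 or 3 gave YAF2 differences of -0.20, -0.23, -0.19, -0.21 and -0.15, with edgeR adjusted p of 0.0953, 0.0616, 0.117, 0.0831 and 0.221. KDM2B, whose CXXC domain brings variant PRC1 to unmethylated CpG islands, rose by 0.21 with SUDS3 siRNA (edgeR adjusted p = 0.00306) and differed by -0.04 with PHF12 siRNA. KDM2B overlaps RNF34 on the opposite strand.

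L3MBTL2, an MBT-domain protein of the PCGF6 complex, stood at 77.2, 82.5 and 66.6 CPM in controls, 85.3, 80.9 and 89.1 CPM with PHF12 siRNA, and 89.1, 86.7 and 90.8 CPM with SUDS3 siRNA. It rose by 0.17 (edgeR adjusted p = 0.0151) and 0.23 (edgeR adjusted p = 0.000784), and control library 3 was low. Without control library 3 the L3MBTL2 differences were 0.09 (edgeR adjusted p = 0.205) and 0.15, and without PHF12 siRNA library 3 the first was 0.14 (edgeR adjusted p = 0.105). BCOR, a corepressor of the PCGF1 complex, had log2 fold changes of 0.03 and 0.01, and E2F6, a DNA-binding repressor, -0.07 and -0.02. Neither passed.

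**Figure D3:**
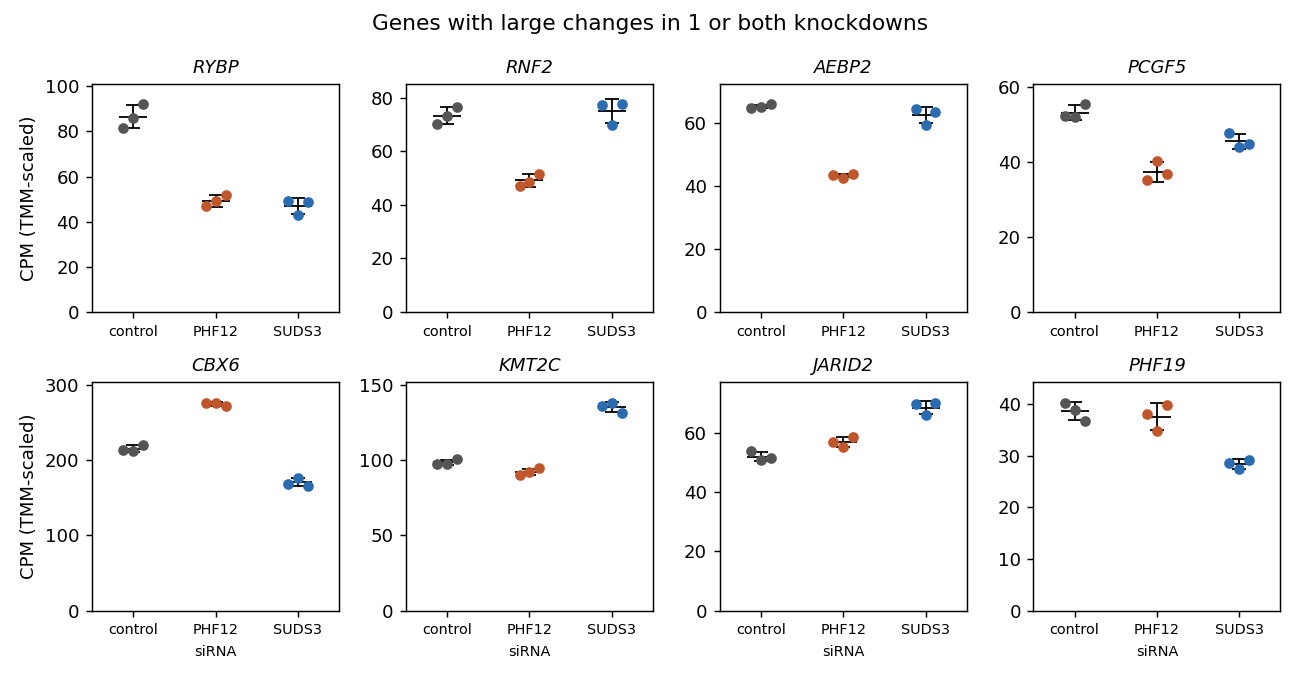
CPM of 8 genes (vertical axis from 0, TMM-scaled) in each library, by siRNA (horizontal axis); points are libraries, the wide bar is the mean and the error bar 1 SD (n = 3). RYBP is low in both knockdowns, RNF2 and AEBP2 are low with PHF12 siRNA, CBX6 lies on either side of the control, and KMT2C, JARID2 and PHF19 stand apart with SUDS3 siRNA.

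The KMT2 enzymes, which methylate histone H3 lysine 4, comprise 4 members, of which 3 rose with PHF12 siRNA and 4 with SUDS3 siRNA. Over all genes 14.8% and 19.6% rose, and among the well expressed genes 23.4% and 32.4%. The changes of KMT2A, KMT2B and KMT2D were small, from 0.17 to 0.26. KMT2A, the human counterpart of fly trithorax, stood at 123.7, 127.8 and 134.7 CPM in controls, 145.3, 145.7 and 145.7 CPM with PHF12 siRNA, and 159.9, 151.7 and 152 CPM with SUDS3 siRNA. The 3 groups did not overlap. KMT2A rose by 0.18 (SE 0.04, edgeR adjusted p = 0.000424) and by 0.26 (SE 0.04, edgeR adjusted p = 9.67e-07). KMT2D, an enzyme of enhancers, stood at 101, 92.4 and 91.6 CPM in controls, 107.2, 106.7 and 107.1 CPM with PHF12 siRNA, and 109.6, 114 and 105.4 CPM with SUDS3 siRNA. The controls were the lowest, and KMT2D rose by 0.17 (SE 0.04, edgeR adjusted p = 0.00249) and by 0.21 (SE 0.04, edgeR adjusted p = 0.000251). KMT2B, the paralog of KMT2A, rose by 0.22 (edgeR adjusted p = 0.00123) and by 0.25 (edgeR adjusted p = 0.000164). The KMT2B call with PHF12 siRNA was lost with limma on TPM (adjusted p = 0.088 with a pseudocount of 1).

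KMT2C, the paralog of KMT2D (chromosome 7, 152134922 to 152436005), behaved otherwise. It stood at 97.3, 97.8 and 100.6 CPM in controls, 90.2, 92.1 and 94.6 CPM with PHF12 siRNA, and 136.4, 138.1 and 131.6 CPM with SUDS3 siRNA. The SUDS3 siRNA libraries were the highest and the PHF12 siRNA libraries the lowest, without overlap. KMT2C rose by 0.46 with SUDS3 siRNA (SE 0.04, edgeR adjusted p = 2.32e-11), and -0.09 with PHF12 siRNA did not pass (SE 0.04, edgeR adjusted p = 0.0785). The direct difference between the knockdowns was 0.55 (SE 0.04, edgeR adjusted p = 7.13e-14), and for KMT2A, KMT2B and KMT2D it was 0.09, 0.04 and 0.04, none of which passed.

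Of 5 further subunits of KMT2 complexes, 2 rose, 1 fell and 2 did not pass with PHF12 siRNA. With SUDS3 siRNA 1 rose, MEN1, and 4 did not pass. Over all genes 14.8% rose and 17.1% fell with PHF12 siRNA, and 19.6% and 19.2% with SUDS3 siRNA. Among the well expressed genes these shares were 23.4% and 26.2%, and 32.4% and 25.9%. With so few genes the counts describe the genes named here. WDR5, a scaffold of the catalytic module, rose by 0.23 with PHF12 siRNA (edgeR adjusted p = 9.07e-06), from 120.1, 124.1 and 123.3 CPM to 144.2, 145.7 and 142.3 CPM, and differed by 0.02 with SUDS3 siRNA. RBBP5, another part of that module, rose by 0.26 with PHF12 siRNA (edgeR adjusted p = 0.000199) and differed by 0.11 with SUDS3 siRNA (edgeR adjusted p = 0.105). DPY30, which binds ASH2L, fell by 0.19 on the log2 scale with PHF12 siRNA (edgeR adjusted p = 0.00848), and without control library 3 the difference was -0.15 (edgeR adjusted p = 0.0664). DPY30 differed by 0.06 with SUDS3 siRNA, and it overlaps MEMO1 on the same strand. ASH2L, which stimulates the enzyme, differed by 0.13 and -0.06 and passed in neither.

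MEN1, the tumour suppressor menin that joins KMT2A and KMT2B, rose by 0.11 with SUDS3 siRNA (edgeR adjusted p = 0.0343), and 0.09 with PHF12 siRNA did not pass. Leaving out control library 2, control library 3, SUDS3 siRNA library 1 or SUDS3 siRNA library 2 took MEN1 to 0.11, 0.08, 0.10 and 0.10, with edgeR adjusted p of 0.0632, 0.152, 0.0956 and 0.0974. Between the knockdowns, SUDS3 siRNA gave lower WDR5 (-0.21, edgeR adjusted p = 1.84e-05), lower ASH2L (-0.19, edgeR adjusted p = 0.00605) and lower RBBP5 (-0.15, edgeR adjusted p = 0.022), and higher DPY30 (0.25, edgeR adjusted p = 0.000326). Without SUDS3 siRNA library 2 the ASH2L difference was -0.16 (edgeR adjusted p = 0.0548). The RBBP5 difference was -0.13, -0.13, -0.14 and -0.12 without PHF12 siRNA library 2, PHF12 siRNA library 3, SUDS3 siRNA library 1 and SUDS3 siRNA library 2, with edgeR adjusted p of 0.0753, 0.0879, 0.0707 and 0.124.

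Of the H3K27 demethylases, KDM6A rose with PHF12 siRNA and both rose with SUDS3 siRNA. Over all genes 14.8% and 19.6% rose, and among the well expressed genes 23.4% and 32.4%. Counts of 2 genes describe those genes only. KDM6A, also called UTX (chromosome X, 44873177 to 45112602), stood at 67.6, 67.5 and 72.7 CPM in controls, 84.3, 84.1 and 88.1 CPM with PHF12 siRNA, and 79.1, 83.5 and 82.9 CPM with SUDS3 siRNA. All 6 knockdown libraries lay above the controls, and KDM6A rose by 0.30 (SE 0.05, edgeR adjusted p = 2.96e-06) and by 0.24 (SE 0.05, edgeR adjusted p = 8.77e-05). KDM6B, also called JMJD3, stood at 43, 40.7 and 44.2 CPM in controls, 40, 38 and 40.7 CPM with PHF12 siRNA, and 51.3, 50.6 and 51.1 CPM with SUDS3 siRNA. It rose by 0.26 with SUDS3 siRNA (SE 0.06, edgeR adjusted p = 0.000399), and -0.11 with PHF12 siRNA did not pass (edgeR adjusted p = 0.176). The knockdowns differed in KDM6B by 0.37 (edgeR adjusted p = 1.82e-06) and in KDM6A by -0.06, which did not pass.

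Over all 43 members, SUDS3 siRNA against PHF12 siRNA gave 10 higher, 11 lower and 22 that did not pass. These are 23.3% and 25.6%, beside 22.7% higher and 21.1% lower over all genes tested, which is near the background. Among the 9669 genes at or above the lowest member's level, 35.6% were higher and 28% lower. The members' shares lay below these, but those genes were not matched to the members' levels and the difference was not tested. The number of members called is not a result about the set. The members' median was 0.03, against -0.01 over all genes, and they ranged from -0.69 for CBX6 to 0.61 for RNF2. Under upper-quartile scaling 9 were higher and 15 lower, so that 37.5% of the members' calls were higher in place of 47.6%, while over all genes the share went from 51.8% to 41.2%, and the members' median became -0.04.

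Levels within the set were compared per kilobase of exon. The exon length of a gene merges all its annotated transcripts, so the order may differ for the transcripts expressed here. In controls RBBP4 had the highest level, 54.6 ± 1.46 CPM per kilobase, followed by EZH2 at 36.1 ± 0.451 and WDR5 at 33.8 ± 0.585 (SD, n = 3). CBX7 was the lowest at 1.32 ± 0.124 CPM per kilobase, then YAF2 at 2.46 ± 0.07 and PHC3 at 2.57 ± 0.105. YAF2 and PHC3 differed by less than the sum of their SDs, as did MEN1 (28.7 ± 0.847) and BCOR (27.9 ± 1.13), and RYBP (12 ± 0.719) and RBBP5 (12 ± 0.274). RING1 stood at 26.4 ± 0.874 and RNF2 at 18.0 ± 0.795 CPM per kilobase. KMT2A, KMT2B, KMT2C and KMT2D lay between 4.11 and 6.03 CPM per kilobase.

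Ratios between paralogs or partners showed how the composition at the RNA level moved, and they were not tested. RNF2 over RING1, per exon base, was 0.648, 0.662 and 0.742 in controls, 0.439, 0.458 and 0.502 with PHF12 siRNA, and 0.716, 0.657 and 0.694 with SUDS3 siRNA. The PHF12 siRNA libraries lay below all others. RYBP over YAF2 was 4.87 ± 0.268 in controls, 3.00 ± 0.233 with PHF12 siRNA and 3.08 ± 0.448 with SUDS3 siRNA, and above 1 in every library. The size of each ratio, and whether it lies above 1, depends on merged exon lengths. These may differ from the lengths of the transcripts expressed here. JARID2 over AEBP2 was 0.871 ± 0.0321, 1.44 ± 0.0263 and 1.2 ± 0.0138 (SD, n = 3 each), crossing 1 in both knockdowns, through less AEBP2 with PHF12 siRNA and more JARID2 with SUDS3 siRNA. EZH2 over EZH1 was 4.89 ± 0.226, 5.77 ± 0.625 and 4.47 ± 0.073, and MTF2 over PHF19 was 4.11 ± 0.377, 4.55 ± 0.441 and 5.25 ± 0.144.

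**Figure D4:**
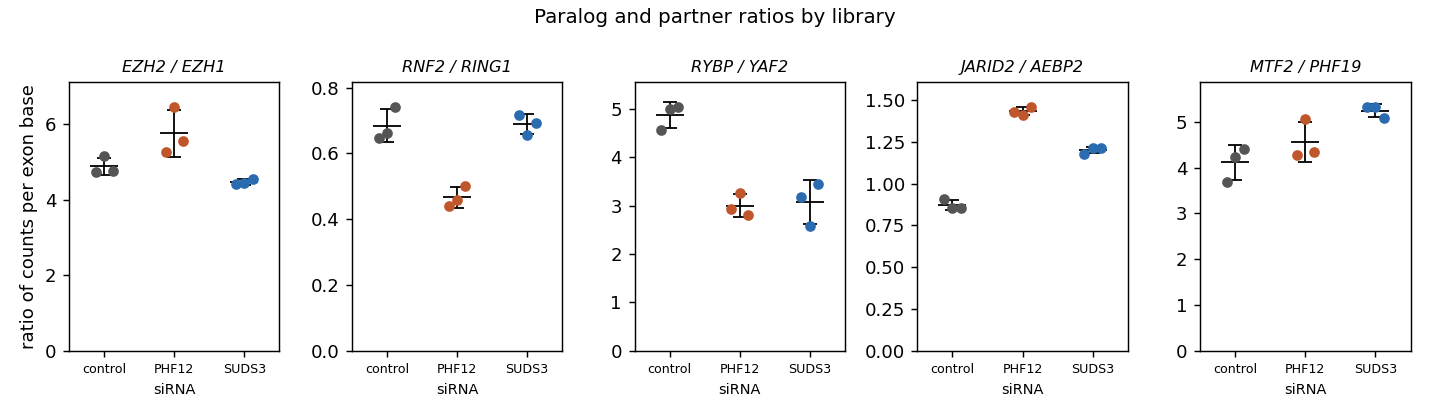
Ratio of counts per exon base (vertical axis from 0) between 5 pairs of genes in each library, by siRNA (horizontal axis); points are libraries, the wide bar is the mean and the error bar 1 SD (n = 3). RNF2 over RING1 is lowest with PHF12 siRNA, RYBP over YAF2 is lower in both knockdowns, and JARID2 over AEBP2 is higher in both.

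As shares of the 6 PCGF transcripts per exon base, BMI1 made up 28.5% in controls, 29.2% with PHF12 siRNA and 29.2% with SUDS3 siRNA, and PCGF6 24.4%, 25.9% and 21.9%. PCGF5 made up 8.25 to 8.89% in controls and 6.09 to 6.90% with PHF12 siRNA, ranges that did not overlap, and 8.36% on average with SUDS3 siRNA. PCGF2 made up 15.2 to 16.9% in controls and 18.4 to 21.0% with PHF12 siRNA, and overlapped the controls with SUDS3 siRNA, at 16.6 to 20.1%. These shares depend on the same merged exon lengths and were not tested. A share also moves with the levels of the other PCGF genes. PCGF5 fell by 0.22 on the log2 scale with SUDS3 siRNA, though its mean share in controls was 8.47%. The rise of PCGF2 itself with PHF12 siRNA, 0.19, lost its call in 6 of 18 alternatives.

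The words shown above were described over all genes. AATCAC ranked 1 of 4086 hexamers for lower fold changes with PHF12 siRNA, read on the RNA's strand of the longest 3′ UTR of each gene. For the rank, fold changes were first adjusted for 3′ UTR length, its share of G and C bases, and expression level. The shares and medians that follow were not adjusted for these. Of 13659 genes with such a 3′ UTR, 4231 (31.0%) held it, and of these 38.2% fell with PHF12 siRNA, against 13.7% of those without it. Among the members, 17 (39.5%) held AATCAC, of which 3 rose, 6 fell and 8 did not pass, with a median log2 fold change of -0.06. Those 6 were RYBP, AEBP2, PCGF5, PCGF3, SUZ12 and DPY30. The 3 that rose were CBX2, which holds 2 sites, and RBBP5 and KDM6A with 1 each. Of those that did not pass, PHC1, PHC3 and KMT2C hold 2 sites each, and EZH1, RBBP4, PHF19, CBX7 and E2F6 hold 1 each. The part of a site in these changes was not tested. Of the 26 members without it, 9 rose, 2 fell and 15 did not pass, with a median of 0.11, and those that fell were RNF2 and PCGF1. The members with the word had longer 3′ UTRs, with a median of 2941 bases against 1258.

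TACATT ranked 2 of 4086 for lower fold changes with SUDS3 siRNA, adjusted in the same way, after the overlapping GTACAT. The shares and medians here are again unadjusted. Of the 13659 genes, 5630 (41.2%) held it, and 31.4% of these fell, against 17.1% of those without it. Among the members, 25 (58.1%) held TACATT, of which 7 rose (JARID2, CBX2, KDM2B, KMT2A, KMT2C, MEN1 and KDM6A), 6 fell (RYBP, PCGF3, PCGF5, BMI1, PHC3 and YAF2) and 12 did not pass, with a median of -0.01. Of the 18 without it, 6 rose, 3 fell (PHF19, PCGF6 and CBX6) and 9 did not pass, with a median of 0.06. Members with TACATT had a median 3′ UTR length of 2503 bases, against 1216. Since these hexamers were picked out from the same fold changes, the counts are a description. The sources used here do not hold the siRNA sequences, and the part of such words in the changes of RYBP, AEBP2, PCGF3 and PCGF5 was not tested.

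Other genes of the same pathways were described from 5 fixed lists. Their shares are read against 14.8% higher and 17.1% lower over all genes with PHF12 siRNA (23.4% and 26.2% of the well expressed genes), and 19.6% and 19.2% with SUDS3 siRNA (32.4% and 25.9%). Of 33 other Polycomb genes tested, 8 rose, 8 fell and 17 did not pass with PHF12 siRNA (median 0.07), and 12 rose, 12 fell and 9 did not pass with SUDS3 siRNA (median 0.04). These are 24.2% in each direction with PHF12 siRNA and 36.4% in each with SUDS3 siRNA. SCML2, an MBT-domain protein that binds PRC1, rose from 56.1 ± 4.78 to 76.8 ± 3.84 CPM with PHF12 siRNA (0.46, edgeR adjusted p = 7.07e-08). With SUDS3 siRNA SCML2 fell to 29.2 ± 0.797 CPM (-0.94, edgeR adjusted p = 6.6e-15; SD, n = 3). Its relative SCML1 fell by 0.41 on the log2 scale (edgeR adjusted p = 5.52e-10) with PHF12 siRNA and by 0.52 (edgeR adjusted p = 1.94e-12) with SUDS3 siRNA. CBX3, a heterochromatin protein also found in the PCGF6 complex, fell by 0.36 on the log2 scale with PHF12 siRNA (edgeR adjusted p = 4.6e-12). SAMD11, a SAM-domain protein, fell by 0.87 on the log2 scale with SUDS3 siRNA (edgeR adjusted p = 9.17e-13).

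Of 17 other genes of H3K4 methyltransferase complexes, 6 rose, 1 fell and 10 did not pass with PHF12 siRNA (median 0.11), and 6 rose, 4 fell and 7 did not pass with SUDS3 siRNA (median 0.05). That is 35.3% higher and 5.88% lower, beside 14.8% and 17.1% of all genes, and 35.3% higher and 23.5% lower, beside 19.6% and 19.2%. Among the well expressed genes 23.4% rose and 26.2% fell with PHF12 siRNA. With SUDS3 siRNA 32.4% of them rose and 25.9% fell, so the list's shares there are near that background. TASP1, the protease that cleaves KMT2A, rose by 0.39 (edgeR adjusted p = 0.00267) and by 0.53 (edgeR adjusted p = 5.07e-05). PHF20, a subunit of an acetyltransferase complex that shares WDR5, fell by 0.37 on the log2 scale with PHF12 siRNA (edgeR adjusted p = 1.77e-06), and HCFC2 rose by 0.22 (edgeR adjusted p = 0.0358). Without control library 1, control library 2 or PHF12 siRNA library 3, the HCFC2 difference was 0.18, 0.24 and 0.16, with edgeR adjusted p of 0.154, 0.0609 and 0.195. The list's 7 calls with PHF12 siRNA became 4 without control library 2 or PHF12 siRNA library 3. With SUDS3 siRNA, PSIP1, which tethers menin and KMT2A to chromatin, fell by 0.51 on the log2 scale (edgeR adjusted p = 2.46e-14), and the methyltransferase ASH1L fell by 0.47 (edgeR adjusted p = 1.34e-09).

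Of 6 genes listed as H3K4 demethylases, 3 rose and 1 fell with PHF12 siRNA (median 0.04), and 4 rose and 2 did not pass with SUDS3 siRNA (median 0.31). The shares higher were 50% and 66.7%, beside 14.8% and 19.6% of all genes and 23.4% and 32.4% of the well expressed genes, but they rest on 6 genes. KDM1B, a relative of LSD1, stood at 51 ± 1.62 CPM in controls, 32.9 ± 1.74 CPM with PHF12 siRNA (-0.63, edgeR adjusted p = 2.99e-11) and 72.0 ± 3.1 CPM with SUDS3 siRNA (0.50, edgeR adjusted p = 4.05e-09; SD, n = 3). KDM5A rose by 0.22 with PHF12 siRNA (edgeR adjusted p = 0.000354). KDM5B rose by 0.12 with PHF12 siRNA (edgeR adjusted p = 0.025) and by 0.57 with SUDS3 siRNA (edgeR adjusted p = 3.5e-14). KDM2A, which is best known as an H3K36 demethylase, rose by 0.36 with SUDS3 siRNA (edgeR adjusted p = 9.51e-09). The list's 4 calls with PHF12 siRNA became 2 without control library 2, control library 3 or PHF12 siRNA library 3, where KDM5B stood at 0.11, 0.10 and 0.11 with edgeR adjusted p of 0.0862, 0.0924 and 0.0813.

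Of 28 BAF chromatin remodelling genes, 8 rose, 3 fell and 17 did not pass with PHF12 siRNA (median 0.03), and 9 rose, 8 fell and 11 did not pass with SUDS3 siRNA (median 0.03). With PHF12 siRNA these are 28.6% higher and 10.7% lower, beside 23.4% and 26.2% of the well expressed genes. With SUDS3 siRNA they are 32.1% and 28.6%, beside 32.4% and 25.9%, which is near the background. ARID1A and ARID1B, the DNA-binding subunits of canonical BAF, fell by 0.55 (edgeR adjusted p = 2.28e-12) and 0.56 (edgeR adjusted p = 8.5e-10) on the log2 scale with SUDS3 siRNA. DPF1 rose by 0.51 (edgeR adjusted p = 9.6e-05) and DPF3, its paralog, fell by 0.51 on the log2 scale (edgeR adjusted p = 0.00869) with PHF12 siRNA. Without PHF12 siRNA library 2 the DPF3 difference was -0.43 (edgeR adjusted p = 0.0534). ACTL6B, a subunit of neurons, was near the detection limit at 0.461 ± 0.346 CPM in controls, 0.150 ± 0.195 CPM with PHF12 siRNA and 2.43 ± 0.201 CPM with SUDS3 siRNA (SD, n = 3; edgeR adjusted p = 0.0429 and 0.000231). The ACTL6B call with PHF12 siRNA was lost in 12 of 18 alternatives, among them without control library 1 or 3, without PHF12 siRNA library 1 or 2 and without SUDS3 siRNA library 1, 2 or 3, with edgeR adjusted p of 0.0513, 0.395, 0.208, 0.184, 0.06, 0.0563 and 0.0572. The list's 17 calls with SUDS3 siRNA became 11 without control library 2.

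Developmental genes known as Polycomb targets, outside the HOX clusters, were the last list. Of 62 tested, 11 rose, 5 fell and 46 did not pass with PHF12 siRNA (median 0.02), and 8 rose, 16 fell and 38 did not pass with SUDS3 siRNA (median -0.03). These are 17.7% higher and 8.06% lower, beside 14.8% and 17.1% of all genes, and 12.9% higher and 25.8% lower, beside 19.6% and 19.2%. WT1, a kidney transcription factor, stood at 8.18 ± 0.144 CPM in controls, 4.90 ± 1.06 CPM with PHF12 siRNA (-0.74, edgeR adjusted p = 0.000333) and 4.52 ± 0.856 CPM with SUDS3 siRNA (-0.85, edgeR adjusted p = 4.88e-05; SD, n = 3). DLX5, a homeobox gene, fell by 1.21 on the log2 scale with PHF12 siRNA (edgeR adjusted p = 1.31e-05), from 4.74 ± 1.59 to 2.06 ± 0.0211 CPM (SD, n = 3). ZIC1, a zinc-finger gene of the nervous system at under 2 CPM, rose by 0.98 (edgeR adjusted p = 0.0287), and without control library 2, PHF12 siRNA library 2 or PHF12 siRNA library 3 its difference was 0.68, 0.91 and 0.99, with edgeR adjusted p of 0.177, 0.0996 and 0.0631. With SUDS3 siRNA, the growth factor gene BMP2 fell by 0.83 (edgeR adjusted p = 1.58e-06) and the homeobox gene MSX1 by 0.78 (edgeR adjusted p = 2.1e-11) on the log2 scale.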

How the data were processed

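RNA-seq of 9 libraries was used. Per the submitters' processing notes, the tools were Trimmomatic 0.36, HISAT2 2.1.0 and HTSeq on GRCh38. The authors deposited raw counts (58735 genes) and, separately, TPM values, which are scaled for transcript length (58734 genes). The sources used here do not give the strand setting or the handling of multimapping reads. Identifiers were named with GENCODE 29. Counts were analysed in R 4.3.3 with edgeR 4.0.16 (filterByExpr with a minimum count of 10, TMM, robust quasi-likelihood fit over all 9 libraries, no replicate block), with Benjamini-Hochberg adjustment over the 18088 genes tested and a threshold of 0.05. SEs were derived from the F statistic. CPM per kilobase used merged exon lengths. The alternatives used DESeq2 1.42.0, limma 3.58.1 on log2(TPM + 1) and log2(TPM + 0.1), other scalings and filters, and fits that left out 1 library each. The edgeR step was tested on simulated data. Replicates of each group differed by more than sampling noise. The members and lists were chosen with earlier results of these data known. Library values, SE and adjusted p were given for the 8 members with the largest changes that passed in each knockdown, for members that passed in opposite directions, and for EZH2, SUZ12, EED, RNF2, BMI1, KMT2A and KMT2D. Library values of L3MBTL2, WDR5 and KDM6B were added after their values were seen. From each list, the 3 largest changes that passed in each knockdown were named.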

Additional observations from a re-analysis of the deposited data

How the results depend on the processing

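None of the members' called log2 fold changes changed sign in the 18 alternatives to the edgeR fit. Over the 3 comparisons, 2212 of the members' values kept their side of the threshold, 56 lost a call and 54 gained one. With upper-quartile scaling 19 members rose with PHF12 siRNA in place of 12, while over all genes 18.7% rose in place of 14.8%. With limma on log2(TPM + 1), 2 H3K4 demethylase genes were called with PHF12 siRNA in place of 4 (2 also with a pseudocount of 0.1), and 7 BAF genes in place of 11. The causes were not tested. Leaving out 1 library at a time gave 11 to 14 members higher and 6 to 8 lower with PHF12 siRNA. Over all genes 12.1% to 14.9% were higher and 14.2% to 16.2% lower. With SUDS3 siRNA 11 to 13 members were higher and 8 to 9 lower, beside 16.4% to 18.9% and 16% to 18.4% of all genes. Between the knockdowns 9 to 11 were higher and 9 to 11 lower, beside 19.7% to 22% and 18.7% to 20.8%. The calls in the lists (other Polycomb genes, H3K4 methyltransferase complexes, H3K4 demethylases, BAF, developmental targets) then ranged over 11 to 15, 4 to 8, 2 to 4, 8 to 11 and 13 to 16 with PHF12 siRNA, and over 21 to 25, 8 to 11, 4 to 5, 11 to 16 and 16 to 24 with SUDS3 siRNA. The replicate numbers did not pair the libraries: deviations correlated at -0.02 to 0.03 for the same number and at -0.03 to 0.02 for other numbers. With the replicate block, 14 members rose and 8 fell with PHF12 siRNA, beside 15.1% and 17.2% of all genes. With SUDS3 siRNA 13 rose and 9 fell, beside 19.8% and 19.3%. Between the knockdowns 10 were higher and 11 lower, beside 22.9% and 21.2%. If 1 fragment was written as 4 counts, the depth is lower than the totals.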

Other observations

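The deposited TPM values did not follow exon length. Gene lengths implied by the ratio of counts to TPM had a Spearman correlation of 0.00 with merged exon lengths over 9860 genes with a total count above 4000. This correlation is across genes, which are not independent replicates. For the 43 Polycomb and trithorax genes, the implied lengths spanned 192.9-fold from shortest to longest, against 17.2-fold for the exon lengths. Log2 fold changes of the SUDS3 siRNA mean over the control mean had a Pearson correlation of 1.0 between counts and TPM across genes. A length that is fixed for a gene cancels in such a ratio. PHF12 siRNA was not compared in this way. Because the implied lengths did not follow exon length, levels of RBBP4, EZH2 and the other genes were compared only from counts per kilobase of exon.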
